A study of Mus musculus with 15 samples.

Results

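The expression of 8 genes whose products mark the Paneth cell, the granule-filled secretory cell at the base of the small intestinal crypt, was followed across every library of a study of SOX9 overexpression in mouse small intestinal organoids. The members were Lyz1, Mmp7, Ang4, Mptx2, Itln1, Defa17, Defa24 and Defa30, taken by symbol from the deposited gene count files. All 8 were present among the 78298 genes listed, and 7 of the 8 were among the 17560 genes that passed a filter on low counts. Mptx2 did not pass it and was described by its counts alone. The organoids were grown from crypts of female C57BL/6J mice and transduced with lentivirus, and the poly(A) RNA of each line was sequenced.

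There were 5 conditions, with 3 libraries each and 15 in all. Halo-NLS was the control line, which expressed a V5-tagged HaloTag protein carrying a nuclear localisation signal. SOX9-mEGFP_budding and SOX9-Halo_budding overexpressed Sox9 fused to mEGFP-V5 or to Halo-V5 and were collected as budding organoids. SOX9-mEGFP_spheroid and SOX9-Halo_spheroid were the same lines after they had turned into round spheroids at later passages, and they carried an additional histone label, H2B-mScarletI in the first and H2B-mEGFP in the other. Every line, the control included, expressed its transgene from the weak ubiquitous L30 promoter with puromycin selection, so the transgene was not restricted to any cell type. Each condition was a single selected line, and pooled wells were collected 5 d after seeding. The series' design text calls the 3 libraries of a condition biological replicates, so the p-values measure the spread between cultures of a line, not between mice. Spheroid morphology, time in culture and the histone transgene cannot be told apart.

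Paneth cells lie between the crypt stem cells and release antimicrobial proteins into the gut lumen, together with signals that the neighbouring stem cells depend on. Lysozyme cleaves bacterial cell walls, alpha-defensins are short cysteine-rich peptides that disrupt microbial membranes, angiogenin 4 is a secreted ribonuclease with antimicrobial activity, and intelectin 1 and mucosal pentraxin are secreted lectin-like proteins. Matrilysin, the product of Mmp7, is the protease that cuts mouse pro-alpha-defensins into their active form. SOX9 is required for Paneth cells to form in the mouse intestine. In RNA from whole organoids, fewer Paneth cells and less RNA per Paneth cell cannot be told apart.

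The libraries held between 28062722 and 40559766 counts on genes, with a median of 33491297, so a gene at 0 in all 3 libraries of a condition lay below 0.0285 to 0.0316 CPM (the count scaled by the library's counts on genes), the level of 3 counts in the summed libraries. Between conditions, counts were compared as normalized counts, scaled to a common library size with TMM factors. Such limits, and the counting intervals given for the lowest genes, cover counting error only. Sox9 counts do not separate the transgene from the endogenous gene. They were 515, 769 and 306 normalized counts in the Halo-NLS libraries, and the 12 SOX9 libraries lay between 1336 and 23654. The lowest of the 12 was SOX9-Halo_budding replicate 1, whose 2 companions held 10538 and 6838. SOX9-mEGFP_budding replicate 3 also stood apart, with 15543 normalized counts of the stem cell marker Olfm4 against 170.1 and 692 in its companions. Results for the budding conditions are therefore given with and without these libraries where the call depended on them.

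The members lie on 5 chromosomes of the mouse genome (GRCm39), and the 3 alpha-defensins are close copies in a cluster on chromosome 8. The coding sequences of Defa24 and Defa30 were 98.6% identical, those of Defa17 and Defa30 97.1%, and those of Defa17 and Defa24 95.7%, or 267 of 279 bases. Because alignments to more than 1 place were discarded before counting, the few bases that differ decide how much of each gene could be counted. The last 105 coding bases before the stop codon are shown for the 3 genes, 5′ to 3′ on the coding strand, with the 7 positions at which the copies differ in capitals.
Defa17: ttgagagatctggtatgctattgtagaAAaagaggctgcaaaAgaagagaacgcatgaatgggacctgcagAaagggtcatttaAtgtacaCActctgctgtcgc
Defa24: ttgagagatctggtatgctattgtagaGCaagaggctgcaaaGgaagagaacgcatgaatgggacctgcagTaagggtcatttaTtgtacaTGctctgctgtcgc
Defa30: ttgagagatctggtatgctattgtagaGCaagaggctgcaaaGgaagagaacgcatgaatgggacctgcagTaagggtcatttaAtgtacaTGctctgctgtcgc
Of the 272 windows of 150 bases in the Defa17 transcript, 244 (89.7%) occurred identically in Defa3, so Defa17 could be counted from a small part of its length and its values are uncertain. No such window of the other 7 members was shared with another gene. The exons of Defa30 overlap the pseudogene Defa-ps4 on the same strand over 18.6% of their length, those of Mmp7 overlap AV064505 on the opposite strand over 10.1%, and those of Ang4 overlap Gm63604 and Ear-ps3 over 14.0% and 13.9%. Counting did not use strand, and reads in such overlaps were not assigned to either gene.

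The DNA just before the start sites of 4 members is shown because these members moved together in 3 cases and apart in the case of Mmp7. Each stretch covers the 160 bases before the start of the canonical transcript and reads 5′ to 3′ on the strand of the gene. Capitals mark matches, on either strand, to short motifs: CTTTGA for TCF/LEF factors, ACAATG for SOX factors, TTTATNG for CDX factors and AGATAA for GATA factors. The positions are chr9:7691931-7692090 for Mmp7, chr8:22145612-22145771 for Defa17, chr8:22224347-22224506 for Defa24 and chr8:21624473-21624632 for Defa30, all on the plus strand.
Mmp7: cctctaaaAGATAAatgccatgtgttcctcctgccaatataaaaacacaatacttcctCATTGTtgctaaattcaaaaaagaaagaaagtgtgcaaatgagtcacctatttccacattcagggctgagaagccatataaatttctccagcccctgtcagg
Defa17: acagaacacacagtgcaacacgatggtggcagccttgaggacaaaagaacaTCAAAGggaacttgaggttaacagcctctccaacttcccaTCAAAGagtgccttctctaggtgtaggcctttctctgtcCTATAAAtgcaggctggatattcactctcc
Defa24: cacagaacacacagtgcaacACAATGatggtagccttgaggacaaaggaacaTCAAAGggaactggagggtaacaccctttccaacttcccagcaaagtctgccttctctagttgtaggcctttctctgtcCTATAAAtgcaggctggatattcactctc
Defa30: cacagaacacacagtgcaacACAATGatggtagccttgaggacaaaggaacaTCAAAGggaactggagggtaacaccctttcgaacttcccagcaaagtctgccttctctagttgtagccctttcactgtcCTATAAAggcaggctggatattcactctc
The 3 defensin stretches are near copies of each other. In the wider window from 250 bases before to 50 bases after the start site, the TCF/LEF letters occurred in 4 of the 8 members (Mmp7 and the 3 defensins) and in 16.2% of the 21770 protein-coding windows of the genome. The SOX letters occurred in 3 members (Mmp7, Defa24 and Defa30) and in 10.8% of windows, and the CDX letters in 6 members (all but Lyz1 and Ang4) and in 10.6% of windows. The CDX match of the 3 defensins overlaps the letters TATAAA. The GATA letters were found in Mmp7 alone among the members, against 10.6% of windows, and the E-box letters CAGCTG in Lyz1 alone, against 14.9%. These matches are descriptions of letters and not binding sites.

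In the Halo-NLS control the members spanned more than 3 orders of magnitude. Levels per transcript length (TPM) were highest for Defa24 (1979 ± 423; SD, n = 3), Lyz1 (1634 ± 238) and Itln1 (1187 ± 124). Defa17 (235 ± 63.6), Defa30 (214 ± 82.7) and Ang4 (147 ± 57.8) formed a middle group. Mmp7 was at 33.6 ± 7.89 and Mptx2 at 0.624 TPM. Per library, all members together took 1743, 1304 and 1361 CPM. Transcripts of all 8 genes were thus counted in the control, with Mptx2 near the limit of detection, and RNA from whole organoids does not show which cells they came from.

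**Figure D1:**
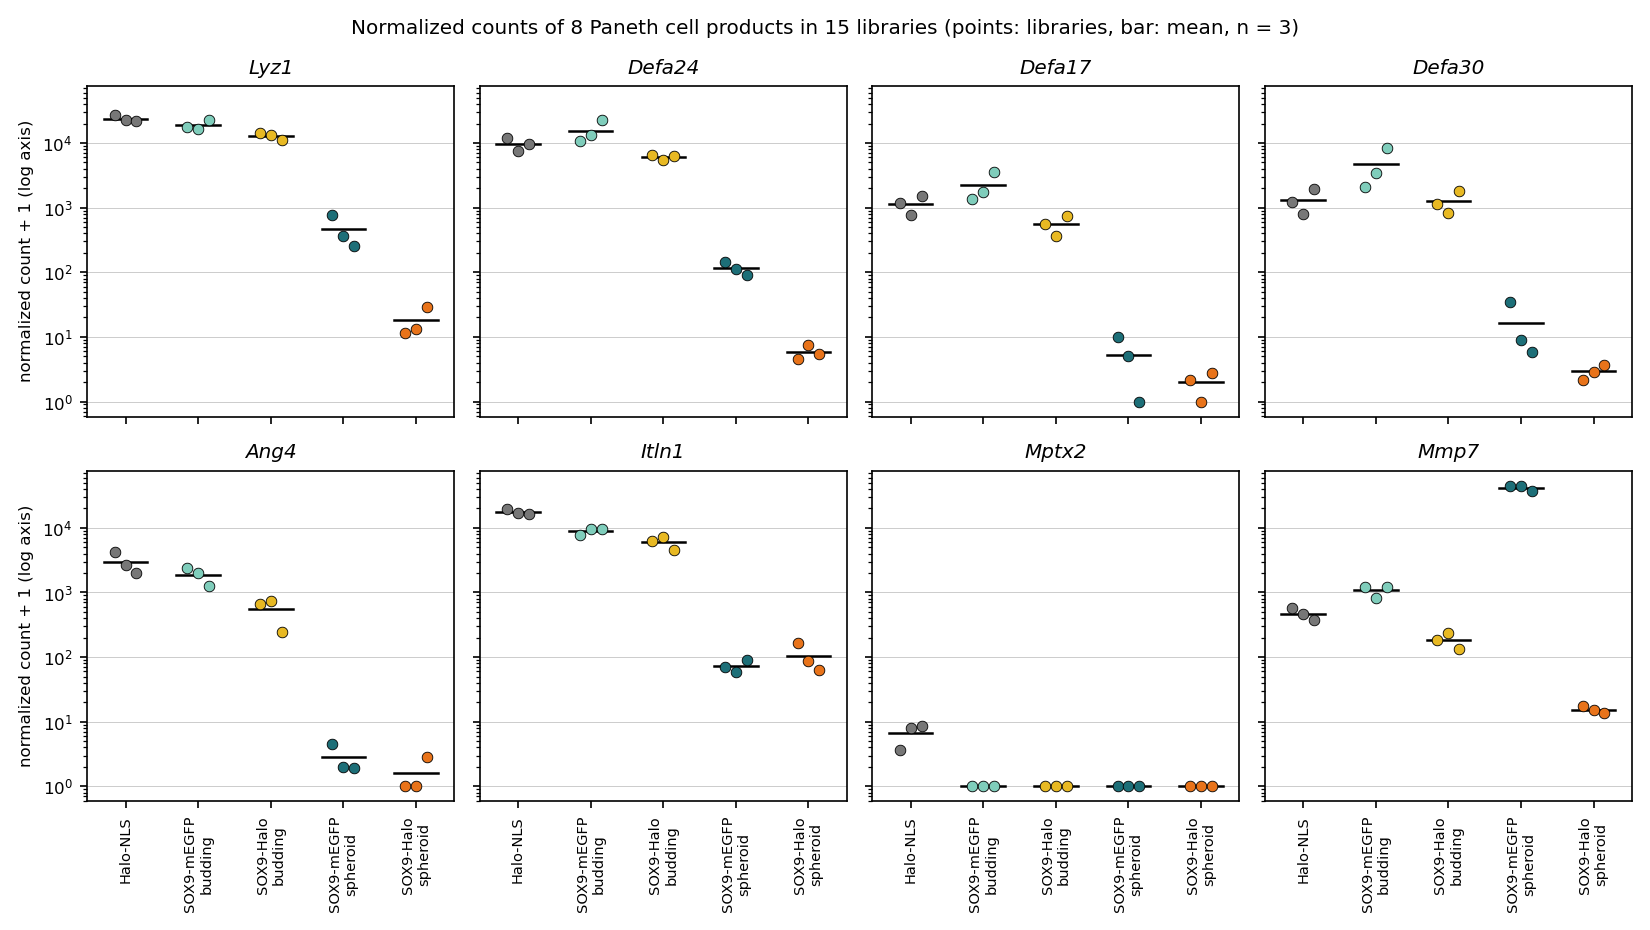
Normalized count plus 1 (log axis) of each of the 8 members in the 5 conditions, with a point for each library and a bar at the mean of 3 libraries. The other 6 tested members fall in both spheroid conditions, Mmp7 reaches 44544 normalized counts in SOX9-mEGFP_spheroid and falls in SOX9-Halo_spheroid, and Mptx2 has counts in Halo-NLS alone.

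To ask how the members stood in the SOX9-Halo line after it had become spheroids, SOX9-Halo_spheroid was compared with the control. All 7 tested members were lower, in a comparison in which 15.3% of all tested genes were called lower and 13.6% higher. A gene was called when its adjusted p was at most 0.01, its change at least 2-fold and its mean normalized count at least 10. The median log2 change of the 7 members was -10.0, against -0.0111 over all tested genes.

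Lyz1 (chr10:117123698-117128775, minus strand), the lysozyme of Paneth cells, had 27535, 22349 and 21589 normalized counts in the Halo-NLS libraries and 10.7, 12.3 and 27.9 in SOX9-Halo_spheroid. Every control library lay far above every spheroid library, and the means differed 1405-fold. The fitted log2 change was -10.42 ± 0.54 (SE; edgeR adjusted p = 2.9e-09). Defa24 (chr8:22224506-22225490, plus strand), the most abundant of the 3 defensins, had 12142, 7483 and 9792 normalized counts in the control and 3.55, 6.62 and 4.5 in the spheroids. This was a 2004-fold difference of the means, with a log2 change of -10.91 ± 0.44 (edgeR adjusted p = 6e-10).

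Itln1 (chr1:171345690-171368943, minus strand), a lectin that binds microbial sugars and is also made by goblet cells, had 19493, 16920 and 16652 normalized counts in Halo-NLS. In SOX9-Halo_spheroid it had 166, 87.0 and 61.2, and the groups did not overlap. It kept the highest level of the 8 members there on the per-length scale, at 9.74 ± 4.40 TPM, with Lyz1 at 1.68, Mmp7 at 1.47 and Defa24 at 1.42. Its log2 change was -7.41 ± 0.38 (edgeR adjusted p = 2.9e-09). Mmp7 (chr9:7692091-7699587, plus strand) had 571, 458 and 371 normalized counts in the control and 16.6, 14.2 and 12.6 in the spheroids. The 32.3-fold difference was the smallest of the 7, with a log2 change of -5.01 ± 0.30 (edgeR adjusted p = 9.3e-09).

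The other members were close to 0 in SOX9-Halo_spheroid. Defa30 (chr8:21609255-21625621, plus strand) held 6 counts over the 3 libraries, with a log2 change of -9.30 ± 0.89 (edgeR adjusted p = 7.5e-07). Ang4 (chr14:51990721-52011053, minus strand) held 2 counts, all in replicate 3, against 4250, 2637 and 2006 normalized counts in the control libraries. Summed over the libraries and scaled by their normalized sizes, the counts gave a ratio of 4430 with a 95% exact counting interval of 1220 to 36500 (edgeR adjusted p = 1.7e-08). Defa17 (chr8:22145772-22146753, plus strand) held 3 counts, for a ratio of 1150 with an interval of 393 to 5570 (edgeR adjusted p = 1.6e-07).

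Mptx2 (chr1:173101949-173105344, minus strand), a mucosal pentraxin, had 2, 6 and 6 counts in the Halo-NLS libraries and 0 in each of the other 12 libraries. Against the level of 3 counts over a condition, Halo-NLS was at least 5.89-fold higher than SOX9-mEGFP_budding, at least 6.35-fold higher than SOX9-Halo_budding, at least 6.09-fold higher than SOX9-mEGFP_spheroid and at least 5.78-fold higher than SOX9-Halo_spheroid. No test was made on 14 counts.

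The same members fell between the budding and the spheroid stage of the SOX9-Halo line. All 7 were lower in the spheroids, where 14.7% of tested genes were called lower and 10.5% higher, and the median log2 change was -9.22. Lyz1 went from 14238, 13080 and 11016 normalized counts in the budding libraries to the values above, with a log2 change of -9.52 ± 0.52 (edgeR adjusted p = 5.1e-09). The changes of Defa24 (-10.21 ± 0.43, edgeR adjusted p = 1.2e-09), Defa30 (-9.22 ± 0.89, adjusted p = 8.8e-07), Itln1 (-5.84 ± 0.36, adjusted p = 1.2e-08) and Mmp7 (-3.67 ± 0.29, adjusted p = 1.4e-07) had the same direction. The ratio of budding to spheroid counts, summed over libraries and scaled by their normalized sizes, was 848 for Ang4 (interval 234 to 7010) and 562 for Defa17 (interval 192 to 2730). This comparison and the preceding one share the spheroid libraries.

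In SOX9-mEGFP_spheroid the members parted. Of the 7 tested members, 6 were lower than in Halo-NLS, in a comparison with 12.1% of genes called lower, and Mmp7 was higher, where 15.3% of genes were called higher. The median log2 change of the 7 was -6.41. Mmp7 had 44544, 43802 and 37133 normalized counts in these spheroids. All 3 values lay above those of the other 12 libraries, whose highest value was 1230 in SOX9-mEGFP_budding replicate 3. The mean was 89.6-fold above the control, with a log2 change of 6.49 ± 0.30 (edgeR adjusted p = 3.3e-09). At 4153 ± 433 TPM, the protease transcript stood above Lyz1 (43.9 ± 25.9), Defa24 (32.3 ± 7.90) and Itln1 (6.66), the members that had led in the control.

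The other members fell, but to higher levels than in SOX9-Halo_spheroid for Lyz1 and Defa24. Lyz1 had 780, 362 and 251 normalized counts in SOX9-mEGFP_spheroid, 51.3-fold below the control (log2 change -5.68 ± 0.43, edgeR adjusted p = 1.7e-07). Defa24 had 146, 112 and 88.6, 85.0-fold below the control (-6.41 ± 0.35, adjusted p = 1.1e-08). Itln1 had 69.2, 58.1 and 88.6, at -7.94 ± 0.39 (edgeR adjusted p = 5.7e-09). Replicate 1 held the highest Lyz1 and Defa24 values of the 3 libraries but not the highest Itln1 value. Defa30 had 33.7, 8.01 and 4.76 normalized counts, with replicate 1 again the highest (-6.39 ± 0.72, edgeR adjusted p = 6.3e-06). Ang4 had 3.55, 1.00 and 0.95 (-10.53 ± 0.70, adjusted p = 6e-08), and Defa17 had 8.87, 4.01 and 0 (-8.00 ± 0.70, adjusted p = 6.1e-07).

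Against its own budding stage the SOX9-mEGFP line gave the same split, with 6 members lower (7.88% of genes were called lower) and Mmp7 higher (8.55% were called higher). Mmp7 rose 38.3-fold from 1225, 820 and 1230 normalized counts in the budding libraries (log2 change 5.26 ± 0.28, edgeR adjusted p = 1.5e-08). Lyz1 fell from 17561, 16180 and 22609 normalized counts, a 40.4-fold difference (-5.34 ± 0.42, edgeR adjusted p = 4e-07). Ang4 (-9.88 ± 0.69), Defa17 (-8.95 ± 0.72), Defa30 (-8.20 ± 0.77), Defa24 (-7.07 ± 0.36) and Itln1 (-6.95 ± 0.38) fell further, with edgeR adjusted p between 9.6e-09 and 1.8e-06.

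**Figure D2:**
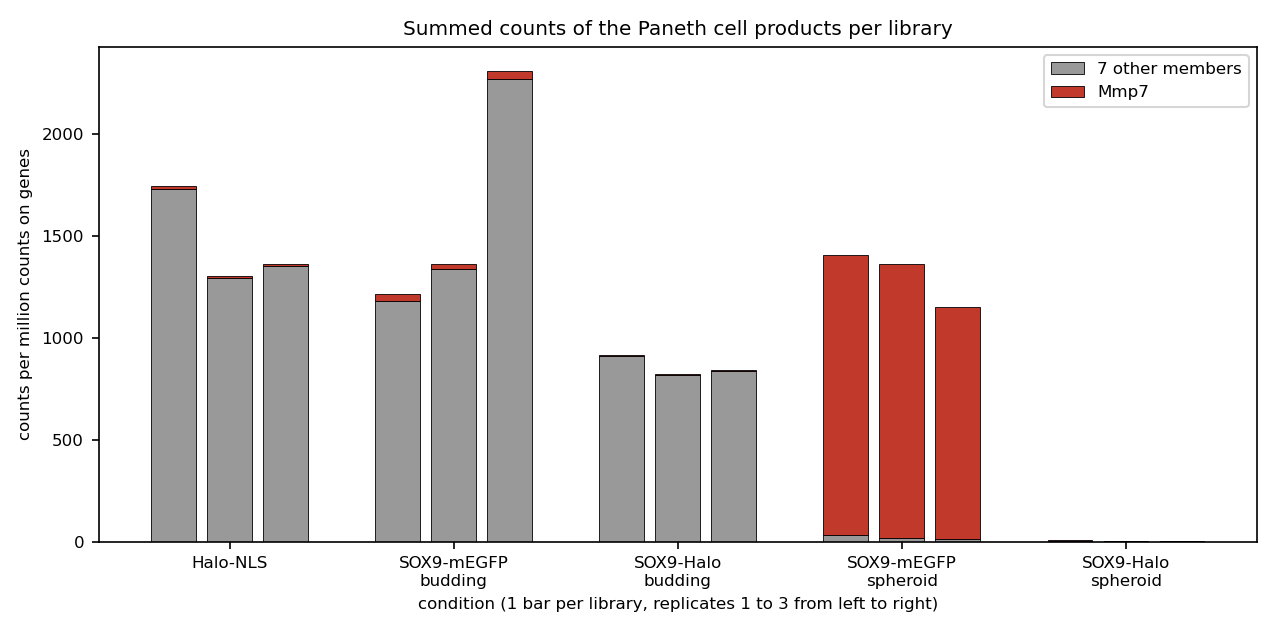
Summed counts of the members (CPM) in each of the 15 libraries, with Mmp7 and the 7 other members stacked. The 3 SOX9-mEGFP_spheroid bars, at 1409, 1361 and 1151 CPM, stand above the SOX9-Halo_budding bars and are made almost wholly of Mmp7, and the SOX9-Halo_spheroid bars are hardly visible.

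Summed over the 8 members, the levels hid this exchange. The sum was 1409, 1361 and 1151 CPM in SOX9-mEGFP_spheroid, within the range of 1213 to 2311 of SOX9-mEGFP_budding for 2 of the 3 libraries. Mmp7 made up 97.7%, 98.8% and 98.8% of it, against 0.688% to 0.89% in Halo-NLS and 1.75% to 2.84% in SOX9-mEGFP_budding. Without Mmp7 the sum was 20.7 ± 10.0 CPM (SD, n = 3). SOX9-Halo_spheroid held 5.99, 3.85 and 3.64 CPM for all members together.

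Whether the step from budding to spheroid differed between the SOX9-Halo and SOX9-mEGFP lines was tested as the interaction of line and morphology, in which 5.58% of tested genes were called lower, that is with a more negative change in the SOX9-Halo line, and 1.81% higher. Among the members 3 were called lower. For Mmp7 the difference between the log2 changes was -8.93 ± 0.40 (edgeR adjusted p = 7.8e-09). For Lyz1 it was -4.19 ± 0.55 (edgeR adjusted p = 1e-04) and for Defa24 -3.14 ± 0.48 (edgeR adjusted p = 0.00041). Itln1 pointed the other way without passing the test (1.11 ± 0.42, edgeR adjusted p = 0.11), and Defa30 did not pass (adjusted p = 0.67). Ang4 and Defa17 did not pass (edgeR adjusted p = 0.95 and 0.98), and their values rest on 2 and 3 counts in SOX9-Halo_spheroid and 6 and 14 in SOX9-mEGFP_spheroid.

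**Figure D3:**
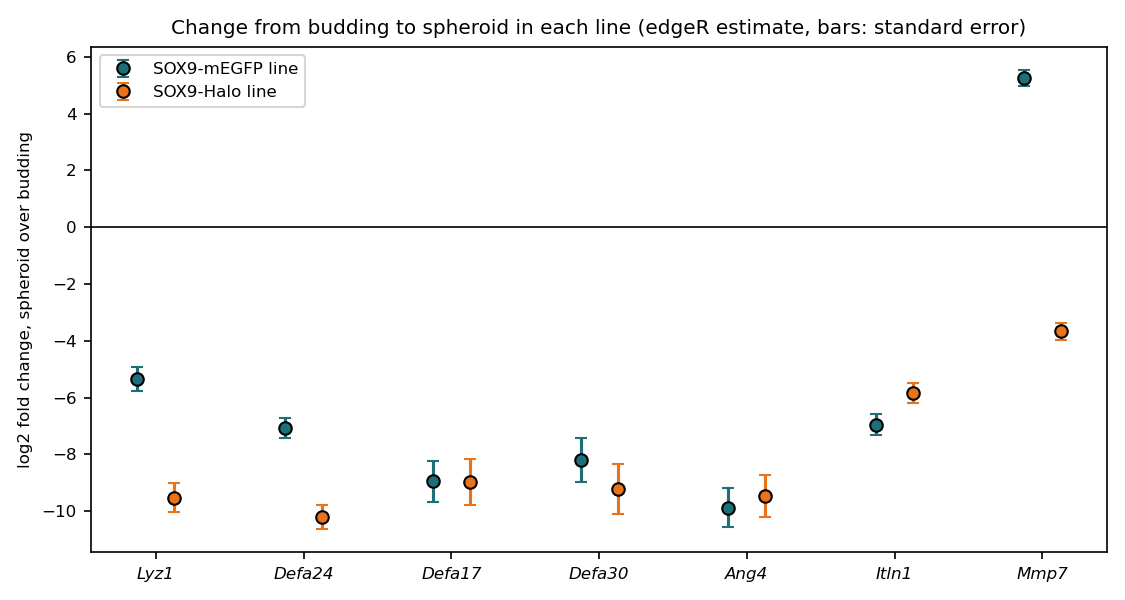
Log2 fold change from budding to spheroid (± SE) of the 7 tested members in the SOX9-mEGFP and the SOX9-Halo line. Mmp7 lies above 0 in the SOX9-mEGFP line at 5.26 and below 0 in the SOX9-Halo line at -3.67, and the other members lie below 0 in both, with the Ang4 and Defa17 points of the SOX9-Halo line resting on 2 and 3 spheroid counts.

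A direct comparison of both spheroid conditions called 3 members lower in SOX9-Halo_spheroid, where 9.58% of genes were called lower and 3.59% higher. Mmp7 differed 2893-fold (log2 change -11.50 ± 0.37, edgeR adjusted p = 1e-10). Lyz1 differed 27.4-fold (-4.74 ± 0.44, adjusted p = 1.8e-06), and the log2 change of Defa24 was -4.51 ± 0.39 (adjusted p = 8.8e-07). Itln1 overlapped between the spheroids, and its mean was higher in SOX9-Halo_spheroid (0.53 ± 0.31, edgeR adjusted p = 0.25). Ang4 and Defa17 overlapped as well, each with at least 1 library at 0 (edgeR adjusted p = 0.49 and 0.23), and Defa30 missed the threshold (-2.91 ± 0.99, adjusted p = 0.045).

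Before the change to spheroids the members differed less from the control, and unequally. In SOX9-Halo_budding, 3 members were called lower than in Halo-NLS, against 1.26% of all tested genes (2.49% were called higher), and the median log2 change of the 7 was -1.05. Ang4 had 671, 747 and 247 normalized counts, below all 3 control libraries, a 5.34-fold difference (-2.42 ± 0.44, edgeR adjusted p = 0.0037). Itln1 had 6287, 7171 and 4485, 2.96-fold below the control (-1.56 ± 0.29, adjusted p = 0.0044). Mmp7 had 183, 237 and 131, 2.54-fold below (-1.34 ± 0.24, adjusted p = 0.0036). None of the 3 groups overlapped with the control. The share of all tested genes without overlap was not counted, here or in the comparisons below, so separation of groups is a description only.

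These calls were not stable. None passed when only the 6 libraries compared were fitted (edgeR adjusted p 0.058 for Ang4, 0.033 for Itln1 and 0.1 for Mmp7), when the replicate number was added as a block (0.02, 0.027 and 0.055), or without Halo-NLS replicate 2 (0.011, 0.015 and 0.014), SOX9-Halo_budding replicate 1 (0.013, 0.017 and 0.016) or SOX9-Halo_budding replicate 3 (0.02, 0.032 and 0.026). Itln1 also missed the threshold without Halo-NLS replicate 3, at 0.012. Lyz1 (-0.90 ± 0.35, edgeR adjusted p = 0.082), Defa24 (-0.70 ± 0.27, adjusted p = 0.079) and Defa17 (-1.05 ± 0.48, adjusted p = 0.13) did not pass. The Defa30 values of 1134, 828 and 1805 normalized counts overlapped with the control values of 1238, 798 and 1962 (adjusted p = 0.92).

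In SOX9-mEGFP_budding, Mmp7 was the only member called higher, where 1.99% of genes were called higher, and no member was called lower, where 0.763% were. At an unadjusted edgeR p under 0.05, 3 members were higher and 1 lower, and DESeq2 called 1 higher and 1 lower. Over all genes DESeq2 called 926 of 17006 higher and 271 lower. The share of all tested genes at that unadjusted p was not counted, here or below, so such counts are descriptions. The Mmp7 mean was 2.34-fold above the control without overlap (1.23 ± 0.24, edgeR adjusted p = 0.006), a call lost when only these libraries were fitted (0.071), under the replicate block (0.056), and without Halo-NLS replicate 2 or 3 or SOX9-mEGFP_budding replicate 1 or 3. Itln1 was lower at 7753, 9431 and 9580 normalized counts (-0.99 ± 0.29, adjusted p = 0.037). Lyz1 overlapped with the control (-0.34, adjusted p = 0.5).

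The 3 defensins had higher means in SOX9-mEGFP_budding than in the control, and replicate 3 carried most of the difference. Defa30 had 2049, 3460 and 8470 normalized counts, a log2 change of 1.81 ± 0.56 (edgeR adjusted p = 0.044) that became 1.04 (adjusted p = 0.21) without replicate 3. Defa24 had 10825, 13191 and 22655, and Defa17 had 1368, 1728 and 3593. Replicate 3 was the highest library of the condition for all 3 defensins and the lowest for Ang4, which had 2374, 2024 and 1270. It is the library with the high Olfm4 count.

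Between both budding SOX9 conditions, edgeR called 1 member, Mmp7, 5.94-fold lower in SOX9-Halo_budding (-2.57 ± 0.25, edgeR adjusted p = 4.4e-05), where 0.165% of tested genes were called lower and 0.29% higher. At an unadjusted edgeR p under 0.05, 5 of the 7 members were lower, and DESeq2 called 3 lower. Over all genes DESeq2 called 104 of 21110 lower and 92 higher. Mmp7 did not pass when only those 6 libraries were fitted (0.018) or under the replicate block (0.05). Defa24 missed the threshold (-1.37 ± 0.28, adjusted p = 0.024). Over all 5 conditions the Mmp7 means ran from SOX9-mEGFP_spheroid (41826 ± 4082 normalized counts) through SOX9-mEGFP_budding (1092 ± 235), Halo-NLS (467 ± 100) and SOX9-Halo_budding (184 ± 53.3) to SOX9-Halo_spheroid (14.5 ± 2.00), with no overlap between neighbours. For the other tested members the 3 non-spheroid conditions held the highest places, and several neighbours in that order overlapped. Lyz1, Ang4, Defa17 and Defa24 overlapped between Halo-NLS and SOX9-mEGFP_budding, and Defa30 between Halo-NLS and SOX9-Halo_budding.

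Among the 9 libraries that were not spheroids, the members are described by Pearson correlations of log2 levels that share line, depth and library. The pairs within the defensins had r of 0.956 (Defa17 and Defa24), 0.89 (Defa17 and Defa30) and 0.848 (Defa24 and Defa30), and 89.7% of the Defa17 windows are shared with a further copy. Lyz1 had r of 0.911 with Itln1 and 0.867 with Ang4. Ang4 and Itln1 had r of 0.866. Between these 3 genes and the defensins, r ran from -0.101 to 0.639, with 0.639 for Lyz1 and Defa24, 0.562 for Lyz1 and Defa17, 0.506 for Ang4 and Defa24, and -0.101 for Itln1 and Defa30. The r of Mmp7 was 0.847 with Defa24, 0.776 with Defa17, 0.718 with Ang4, 0.635 with Lyz1, 0.595 with Defa30 and 0.417 with Itln1. The ratio of Defa24 to Lyz1 normalized counts was 0.41 ± 0.0653 (SD, n = 3) in Halo-NLS, 0.477 ± 0.0802 in SOX9-Halo_budding and 0.81 ± 0.192 in SOX9-mEGFP_budding. The ratio of Itln1 to Lyz1 was 0.745 ± 0.0331 in the control and 0.466 ± 0.0734 and 0.483 ± 0.0873 in the SOX9 budding conditions. The ratio of Mmp7 to Lyz1, 0.0195 in Halo-NLS, was 109.0 ± 46.7 in SOX9-mEGFP_spheroid and 1.05 in SOX9-Halo_spheroid.

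Other alpha-defensin genes were read as a list. The list held 52 genes, of which 42 were in the files, 17 of those pseudogenes, and 8 were tested. The 8 passed the low-count filter through libraries that were not spheroids, as each held at most 6 counts over the 3 libraries of either spheroid condition. Their highest means were all in SOX9-mEGFP_budding. The numbers lower in the spheroids or higher in that condition therefore describe the list and are no test of it. In SOX9-Halo_spheroid 6 of the 8 were lower than in the control and none higher, with a median log2 change of -7.09, or -4.99 with genes at 0 set to their bound. Over all tested genes 15.3% were called lower in that comparison and 13.6% higher. The 2 not called, Defa29 and Defa5, had mean normalized counts of 9.25 and 16.5 over all libraries. In SOX9-mEGFP_spheroid 5 of 8 were lower (median -6.12, or -5.64 with bounds), where 12.1% of all tested genes were called lower and 15.3% higher. Defa38 had 107, 109 and 220 normalized counts in Halo-NLS and 0 in all SOX9-Halo_spheroid libraries, at least 145-fold lower. In neither budding condition was any of the 8 called by edgeR. At an unadjusted p under 0.05, 1 was lower in SOX9-Halo_budding and 7 were higher in SOX9-mEGFP_budding, and DESeq2 called 1 lower and 2 higher. Over all 17006 genes, DESeq2 called 426 lower in SOX9-Halo_budding and 926 higher in SOX9-mEGFP_budding. Defa22 had 143, 198 and 2359 normalized counts and Defa21 had 123, 216 and 1713 in SOX9-mEGFP_budding, with replicate 3 the highest for both, as for Defa17, Defa24 and Defa30.

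Of 15 further genes known from Paneth cells, 14 were in the files and 10 were tested. Of these, Tff3 and Spink4 are also in the goblet marker list used here and Lyz2 is in the leukocyte list, so they count in both. In SOX9-Halo_spheroid 7 were lower than in the control and 1 higher, and in SOX9-mEGFP_spheroid 2 were lower and 1 higher. The shares over all tested genes were 15.3% lower and 13.6% higher in the first and 12.1% lower and 15.3% higher in the other, so the SOX9-mEGFP_spheroid counts lie near them. In SOX9-Halo_budding 2 were lower, Crip1 and Pnliprp2, where 1.26% of all tested genes were called lower. Both calls are lost when only the 6 libraries compared are fitted, where edgeR called 0 of all genes lower and 5 higher. In SOX9-mEGFP_budding 1 was higher, Habp2, where 1.99% of all tested genes were called higher. The lower genes in SOX9-mEGFP_spheroid were Clps, a colipase, and Lyz2, the lysozyme of macrophages and a close copy of Lyz1. Lyz2 had 9.1, 8.0 and 15.1 normalized counts in Halo-NLS and 0 in every SOX9-Halo_spheroid library, so few reads were assigned to that copy. Habp2, which encodes a secreted serine protease, was the gene called higher in both. It had 396, 571 and 705 normalized counts in Halo-NLS, 10553, 9426 and 12774 in SOX9-mEGFP_spheroid (4.29, edgeR adjusted p = 1.9e-07) and 7133, 5345 and 3875 in SOX9-Halo_spheroid (3.29, adjusted p = 7.3e-07). Unlike Mmp7, it was higher in both spheroid conditions. Mptx1, the close copy of Mptx2 with 91.9% coding identity, had 40.5, 25.2 and 25.1 normalized counts in Halo-NLS and 0 in the 6 spheroid libraries.

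Of 14 tested regulators of secretory and Paneth cells, 5 were lower and 1 higher in SOX9-Halo_spheroid than in the control, and 1 was lower and 1 higher in SOX9-mEGFP_spheroid. Over all tested genes the shares were 15.3% lower and 13.6% higher in the first and 12.1% lower and 15.3% higher in the other. In SOX9-Halo_budding 3 of the 14 were higher, Sox9, Creb3l4 and the Wnt receptor gene Fzd5, where 2.49% of all tested genes were called higher. In SOX9-mEGFP_budding 2 were higher, Sox9 and Creb3l4, where 1.99% were. With only the libraries compared, edgeR called 5 of all genes higher in SOX9-Halo_budding and 65 in SOX9-mEGFP_budding. No regulator was called lower in either budding condition by edgeR or DESeq2, and DESeq2 called 3 higher in each. Over all 17006 genes, DESeq2 called 1176 higher in SOX9-Halo_budding and 926 in SOX9-mEGFP_budding. At an unadjusted edgeR p under 0.05, 4 were higher and 2 lower in SOX9-Halo_budding, and 5 higher and 1 lower in SOX9-mEGFP_budding. The higher gene in both spheroid conditions was Sox9 itself, and the lower gene in SOX9-mEGFP_spheroid was Gfi1, a repressor needed in the goblet and Paneth lineage. Atoh1, the transcription factor required for all secretory cells, had 225, 251 and 205 normalized counts in Halo-NLS and 1.2, 0.9 and 0 in SOX9-Halo_spheroid (edgeR adjusted p = 9.4e-09). In SOX9-mEGFP_spheroid it had 335, 244 and 340, and did not pass (0.43, adjusted p = 0.22). In that condition Lyz1, Ang4, Itln1 and the defensins were low while the Atoh1 values overlapped with those of the control. In SOX9-mEGFP_budding Atoh1 had 618, 554 and 564 normalized counts, above the control without being called (1.35). From that stage to the spheroids of the line its log2 change was -0.92, which did not pass (edgeR adjusted p = 0.024).

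Of 5 tested niche signals of the Paneth cell, 3 were lower in each spheroid condition than in Halo-NLS, where 15.3% of all tested genes were lower in SOX9-Halo_spheroid and 12.1% in SOX9-mEGFP_spheroid. Wnt3, the Wnt ligand that Paneth cells supply to stem cells, had 244, 362 and 485 normalized counts in Halo-NLS and 7.1, 5.0 and 1.9 in SOX9-mEGFP_spheroid (-6.24, edgeR adjusted p = 7e-07). It had 0 in all 3 SOX9-Halo_spheroid libraries, at least 367-fold below the control. The Notch ligands Dll1 and Dll4 were also lower in SOX9-mEGFP_spheroid, with means of 78.7 and 26.9 normalized counts against 1428 and 309 in the control. Egf was called higher in both spheroid conditions from a control mean of 8.8, and Tgfa in SOX9-mEGFP_spheroid with a mean of 2633 against 952. Over all tested genes 13.6% were called higher in SOX9-Halo_spheroid and 15.3% in SOX9-mEGFP_spheroid. With 5 tested genes, these higher calls are not read as a result about the list. Neither budding condition had an edgeR call in this list. At an unadjusted p under 0.05, 1 gene was higher and 1 lower in SOX9-Halo_budding and 1 was higher in SOX9-mEGFP_budding. DESeq2 called 1 higher in SOX9-Halo_budding, where it called 1176 of 17006 genes higher.

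**Figure D4:**
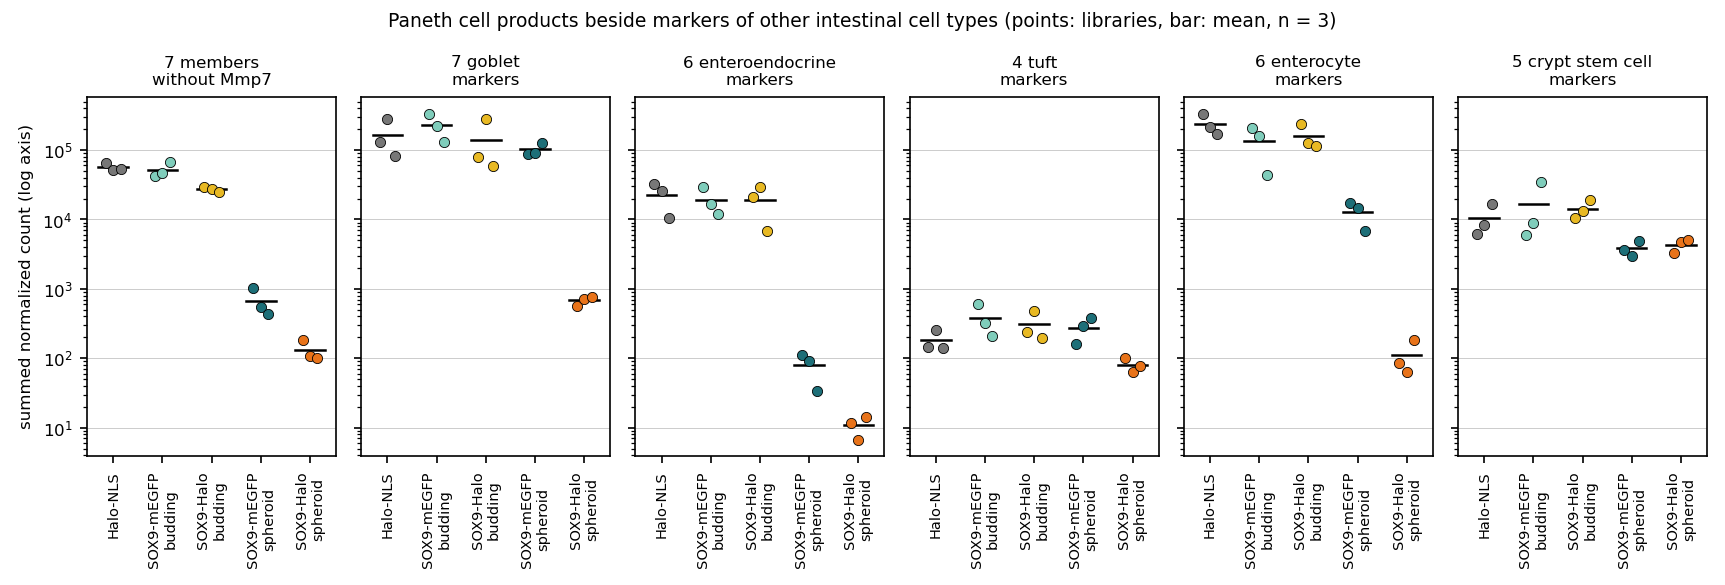
Summed normalized count (log axis) per library of the 7 members without Mmp7 and of markers of goblet, enteroendocrine, tuft, enterocyte and crypt stem cells in the 5 conditions. The mean goblet sum is 101961 in SOX9-mEGFP_spheroid and 683 in SOX9-Halo_spheroid, and the members without Mmp7 fall in both.

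Markers of other intestinal cell types were read in the same libraries. Goblet cell markers separated the spheroids: all 7 were lower in SOX9-Halo_spheroid than in the control, and 0 of 7 were called in SOX9-mEGFP_spheroid, where the median log2 change was -0.18 (1 was lower at an unadjusted edgeR p under 0.05, and DESeq2 called none). Muc2, the gel-forming mucin of goblet cells, had a mean of 998 ± 938 normalized counts in SOX9-mEGFP_spheroid against 9658 ± 10154 in the control, and did not pass (log2 change -3.27 ± 1.22, edgeR adjusted p = 0.037). Its mean in SOX9-Halo_spheroid was 7.33. Tff3, a trefoil factor, had 22756, 19852 and 22139 normalized counts in SOX9-mEGFP_spheroid and 37.9, 18.9 and 22.5 in SOX9-Halo_spheroid. The interaction of line and morphology called 6 of the 7 goblet markers lower, where 5.58% of all tested genes were called lower and 1.81% higher. All 6 enteroendocrine markers and all 6 enterocyte markers were lower in both spheroid conditions than in the control, so the members were not the only differentiated cell products to fall. Of 4 tuft cell markers 1 was lower in each, and of 5 crypt stem markers 2 were lower in SOX9-Halo_spheroid, and 1 lower and 1 higher in SOX9-mEGFP_spheroid. Over all tested genes 15.3% were called lower and 13.6% higher in SOX9-Halo_spheroid, and 12.1% lower and 15.3% higher in SOX9-mEGFP_spheroid. For lists this short the counts lie near these shares, except 2 of 5 stem markers lower in SOX9-Halo_spheroid, which lies above. Means in Halo-NLS, SOX9-mEGFP_spheroid and SOX9-Halo_spheroid were 6140, 127 and 345 for Smoc2 and 1710, 82.4 and 6.06 for Olfm4. They were 387, 1538 and 323 for Lgr5, 456, 249 and 212 for Ascl2 and 1642, 1826 and 3435 for Axin2. Among 4 epithelial markers 2 were lower in SOX9-Halo_spheroid and 0 were called in SOX9-mEGFP_spheroid by edgeR or DESeq2 (2 were higher and 1 lower at an unadjusted edgeR p under 0.05). Their summed level, led by Krt8, was 114925 ± 3041 normalized counts in SOX9-Halo_spheroid, 242710 ± 4717 in SOX9-mEGFP_spheroid and 194675 ± 38378 in the control.

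Mmp7 and lysozyme can also come from other cells, so markers of leukocytes and mesenchyme were read. Of 6 leukocyte markers 4 were tested, of which 3 (Cd14, Cd68 and Csf1r) were higher and 1, Lyz2, which the Paneth list also holds, was lower in SOX9-mEGFP_spheroid than in the control, and 2 were higher and 1 lower in SOX9-Halo_spheroid. Over all tested genes 15.3% were called higher and 12.1% lower in SOX9-mEGFP_spheroid, and 13.6% higher and 15.3% lower in SOX9-Halo_spheroid. The summed means of all 6 leukocyte markers were 219 normalized counts in Halo-NLS, 1497 in SOX9-mEGFP_spheroid and 676 in SOX9-Halo_spheroid, with Cd14 at 1223 in SOX9-mEGFP_spheroid. The defining markers Ptprc, with 10 counts over the 3 libraries, and Adgre1, with at most 3, were near 0 there. Of 3 tested mesenchymal markers 2 were lower in both spheroid conditions than in the control. The shares of all tested genes called lower were 12.1% in SOX9-mEGFP_spheroid and 15.3% in SOX9-Halo_spheroid. The summed means of all 6 listed mesenchymal markers were 292 normalized counts in Halo-NLS, 54.4 in SOX9-mEGFP_spheroid and 50.7 in SOX9-Halo_spheroid. The part of these genes in the Mmp7 level was not tested.

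The 10996 genes whose mean normalized count reached 100 were set against the mean of the standardized log2 levels of the 7 tested members, Mmp7 included. Over the 15 libraries the r of Mmp7 with the other 6 ran from -0.132 to 0.256. The genes that followed this mean most closely were Wnt3, Cdx1 and Mt2 (each Pearson r = 0.99), Trp53i11 (0.988), and Npl, Aldh1b1 and Hpd (each 0.985). Gm17753 (0.981), Papln (0.98) and Cldn15 (0.98) completed the first 10. Cdx1, an intestinal homeobox factor, had condition means of 12287 normalized counts in Halo-NLS, 6747 in SOX9-mEGFP_budding, 4290 in SOX9-Halo_budding, 139 in SOX9-mEGFP_spheroid and 5.64 in SOX9-Halo_spheroid. Cldn15, a claudin of the tight junction, had 23471, 15175, 14894, 440 and 16.1 in the same order. These r values are descriptions over libraries that share lines and conditions.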

How the data were processed

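The authors pooled 6 wells per line, extracted RNA with TRIzol, selected poly(A) RNA, made NEBNext Ultra II libraries, kept uniquely aligned STAR alignments on mm39 (GRCm39) and counted them per gene without strand in union mode; the submitters' processing notes name cutadapt 4.5 and HTSeq 2.0.2. The deposited values are raw counts per gene, 1 file per library. Genes with no symbol (21883) kept their identifiers. Reads on no gene (1.83% to 6.095% of counted reads) and on several genes (9.65% to 13.557%) stayed out of library sizes.

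The tests were made in R 4.3.3 with edgeR 4.0.16 and limma 3.58.1, using TMM factors, filterByExpr (17560 genes kept), quasi-likelihood F tests over all 15 libraries with 1 coefficient per condition, and Benjamini-Hochberg adjustment over all tested genes. A gene was called at adjusted p of at most 0.01, fold of at least 2 and mean normalized count of at least 10. SE was the log2 change over the square root of F. The authors' own tool, DESeq2, was run as an alternative (version 1.42.0), with RLE factors, library sizes alone, no low-count filter, adjusted p 0.05 with no fold, only the libraries compared, a replicate block, and each library left out. The fit was tested on simulated data. Members were named by the fixed list, lists and members were chosen with earlier results of these data known, and named neighbours were the 10 genes with the highest r. Sequences and positions came from the GRCm39 genome with GENCODE M39 canonical transcripts. Same-numbered libraries deviated together in all 3 pairs only between SOX9-Halo_budding and SOX9-Halo_spheroid (r 0.387, 0.21 and 0.314 over 11054 genes), and the blocked fit left all 7 members lower there. Precision was limited by 3 libraries a condition (biological coefficient of variation 0.302) and, for the lowest members, by counts.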

Additional observations from a re-analysis of the deposited data

Results flagged for a closer look

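Mmp7, Lyz1 and Defa24 changed differently between the budding and the spheroid stage of the SOX9-Halo and the SOX9-mEGFP line by the test of the interaction itself. The log2 change in the SOX9-Halo line minus that in the SOX9-mEGFP line was -8.93 for Mmp7, -4.19 for Lyz1 and -3.14 for Defa24. For Mmp7 the changes had opposite signs, and for Lyz1 and Defa24 both were falls of unequal size. Leaving out any library of these conditions kept the Mmp7 difference between -9.11 and -8.70.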

How the results depend on the processing

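Of 246 counts of called members under an alternative, 226 stayed within 1.5 times the reported count. Counts of called members in every comparison with a spheroid condition, and in the interaction, were among these under each alternative, the replicate block included. The budding comparisons moved. For SOX9-Halo_budding against Halo-NLS, 3 members lower became 0 with only the libraries compared and 0 with the replicate block, and 0 to 3 with 1 library left out (0 without Halo-NLS replicate 2 or SOX9-Halo_budding replicate 1 or 3). For SOX9-mEGFP_budding against Halo-NLS, 1 member higher became 2 with no low-count filter and with adjusted p 0.05, 0 with only the libraries compared and with the replicate block, and 0 to 1 with 1 library left out (0 without Halo-NLS replicate 2 or 3 or SOX9-mEGFP_budding replicate 1 or 3), and 0 lower became 1 with DESeq2 and with adjusted p 0.05. For SOX9-Halo_budding against SOX9-mEGFP_budding, 1 member lower became 5 with no low-count filter, 3 with DESeq2, 2 with adjusted p 0.05, and 0 with only the libraries compared and with the replicate block. The cause was not tested. Values of single members that changed sign all belonged to members not called. The log2 change of Defa30 in SOX9-Halo_budding against Halo-NLS was 0.24 with library sizes alone and -0.41 to 0.30 with 1 library left out. In the interaction, Defa17 was 0.0102 with RLE factors, 0.0057 with no low-count filter and 0.0077 with only the libraries compared, and -0.81 to 1.06 with 1 library left out, where Ang4 ranged from -2.22 to 1.25 and Defa30 from -1.69 to 0.23. The totals of called genes behind the percentages moved as well. For SOX9-Halo_budding against Halo-NLS, 438 higher and 221 lower became 1933 and 424 with no low-count filter, 1176 and 426 with DESeq2, 1068 and 109 with library sizes alone, 20 and 7 with the replicate block, and 5 and 0 with only the libraries compared, and 1986 and 384 without Halo-NLS replicate 1 (125 and 76 without its replicate 2, 187 and 101 without its replicate 3, 223 and 67 without SOX9-Halo_budding replicate 1, and 151 and 60 without its replicate 3). For SOX9-mEGFP_budding against Halo-NLS, 350 higher and 134 lower became 1730 and 261 with no low-count filter, 926 and 271 with DESeq2, 620 higher with library sizes alone, 145 and 66 with the replicate block, 65 and 38 with only the libraries compared, 1839 and 345 without Halo-NLS replicate 1, 143 and 73 without its replicate 2, 191 and 83 without its replicate 3, and 195 to 221 higher and 72 to 84 lower without a SOX9-mEGFP_budding library. For SOX9-Halo_budding against SOX9-mEGFP_budding, 51 higher and 29 lower became 116 and 164 with no low-count filter, 92 and 104 with DESeq2, 17 and 2 with only the libraries compared, and 9 and 0 with the replicate block, and the 29 lower became 8 without SOX9-Halo_budding replicate 1, 10 without its replicate 3, and 15, 10 and 19 without SOX9-mEGFP_budding replicates 1, 2 and 3. The 318 genes higher in the interaction became 488 with DESeq2 and 180 to 202 without SOX9-Halo_budding replicate 1, SOX9-Halo_spheroid replicate 2 or 3, or SOX9-mEGFP_spheroid replicate 1 or 2, and the 630 higher in SOX9-Halo_spheroid against SOX9-mEGFP_spheroid became 408 without SOX9-mEGFP_spheroid replicate 2. The replicate block took SOX9-mEGFP_spheroid against Halo-NLS from 2690 higher and 2133 lower to 1560 and 1314. With adjusted p 0.05 and no fold every total rose, for example from 2392 and 2682 to 3725 and 4087 for SOX9-Halo_spheroid against Halo-NLS. Library sizes alone put the median log2 change of all genes against Halo-NLS at 0.269 to 0.308, and gave 3102 higher and 2229 lower for SOX9-Halo_spheroid and 3333 and 1500 (from 2690 and 2133) for SOX9-mEGFP_spheroid, beside member changes of -10.0 and -6.41 (medians) in the spheroids. Depth limits Mptx2, and Ang4, Defa17 and Defa30 in SOX9-Halo_spheroid, where 2, 3 and 6 counts set their values.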

Other observations

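The genes whose log2 levels followed Mmp7 most closely over the 15 libraries were read after its values had been seen, and they are given as a description with no test. The first 10 were Bmp8b, Id3, Bmp2, Igdcc4, Slc10a2, Gramd1a, Glipr1, Cpe, Elapor2 and Itpripl2, with r from 0.937 to 0.958. Bmp8b, a bone morphogenetic protein ligand (Pearson r = 0.958), had mean normalized counts of 34.8 in Halo-NLS, 31.8 in SOX9-mEGFP_budding, 29.0 in SOX9-Halo_budding, 1050.1 in SOX9-mEGFP_spheroid and 2.32 in SOX9-Halo_spheroid. Id3, an inhibitor of basic helix-loop-helix factors (0.955), had 388, 284, 157, 1927 and 19.0 in the same order, and Bmp2, another ligand (0.951), had 291, 556, 230, 1885 and 90.9. Slc10a2, the bile acid transporter of the ileum (0.946), had 25.7, 62.0, 46.4, 747 and 2.01. Gramd1a (0.943) had 18.5, 45.5, 49.3, 1832 and 0.915, and Itpripl2 (0.937) had 33.4, 84.4, 105, 1876 and 1.01. Their high means in SOX9-mEGFP_spheroid follow from the choice by correlation, and the order of the other conditions differed between the genes.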
